A study of Mus musculus with 10 samples.

Results

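RNA levels of the genes of cytochrome P450 families 1 to 4 were measured in whole testis of mice with and without a working Crem gene. All array features with exactly 1 annotated gene symbol beginning with Cyp1, Cyp2, Cyp3 or Cyp4 and a lower-case letter were taken, which gave 70 genes of the 19661 genes measured. Each gene was represented by a single feature, a set of probes along its transcript, and no member had more than 1. The 5 WT and 5 Crem -/- (KO) mice were untreated males of a mixed background (129Pas x C57Bl/J), all 8 weeks old and killed at lights on (0 h), and each array held RNA of 1 animal. The KO animals carry an insertion mutation in both Crem alleles in all tissues, and sperm formation in them is known to stop at round spermatids. Whole testis is a mixture of cells, so that fewer or more cells of a type and less or more RNA per cell cannot be told apart in these values.

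Cytochrome P450 enzymes are haem proteins that insert an oxygen atom into their substrates, with electrons passed to them by cytochrome P450 reductase and cytochrome b5. Families 1 to 3 are best known from the liver, intestine and lung, where they oxidise drugs and pollutants, and many of them also oxidise steroids, bile acids and fatty acids. Several Cyp2c, Cyp2b and Cyp2j enzymes turn arachidonic acid into epoxides, and enzymes of family 4 hydroxylate the far end of fatty acids and leukotrienes. Their genes lie in clusters of near copies, and many are switched on in liver by nuclear receptors such as Nr1i2, Nr1i3 and Ppara, by the aryl hydrocarbon receptor Ahr and by Hnf4a. The P450 enzymes best known in the testis, those of sterol, androgen and oestrogen synthesis, belong to other families.

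The Crem feature was between 10.89 and 11.04 in the WT arrays and between 9.01 and 9.41 in the KO arrays (log2 RMA level), a fall by 1.71 ± 0.07 (SE, limma adjusted p = 3e-10). Its probes run along the whole gene, so the remaining signal does not tell which transcript is left. The labels place the arrays in 4 batches. KO replicate 3 and WT replicates 1 to 3 were in batch 2, and WT replicate 5 and KO replicates 1, 4 and 5 in batch 4. KO replicate 2 was the sole array of batch 1, as WT replicate 4 was of batch 3. KO replicates 2 and 3 held more RNA of the protamine Prm1 than the other KO arrays, at 9.62 and 9.66 against 6.69 to 8.18 in KO and 13.61 to 13.95 in WT.

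In the KO testis 14 of the 70 genes were higher and 6 were lower at a limma adjusted p below 0.05. These are 20% and 8.57% of the members, beside 31.1% of all genes higher and 13.2% lower, so that a call was no more common here than elsewhere. A rise of at least 1 on the log2 scale, which is a doubling, was seen in 7 members, or 10% of them, against 1.37% of all genes. No member fell by that much, against 4.36% of all genes. The 7 were Cyp2c66, Cyp2c29, Cyp2c70, Cyp2f2, Cyp2b19, Cyp2c68 and Cyp2b23. In 11 members the WT and KO arrays did not overlap, 9 of them higher and 2 lower in KO, against 32.7% of all genes (22.0% higher and 10.7% lower). The median change over the 70 genes was 0.04 log2 units, beside 0.07 over all genes. When the arrays were centred on housekeeping genes it was −0.01, and that over all genes fell too, to 0.02. The changes of the 50 genes that were not called ran from −0.20 to 0.35, and the 95% interval of 47 of them lay within 0.5 log2 units of 0.

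**Figure D1:**
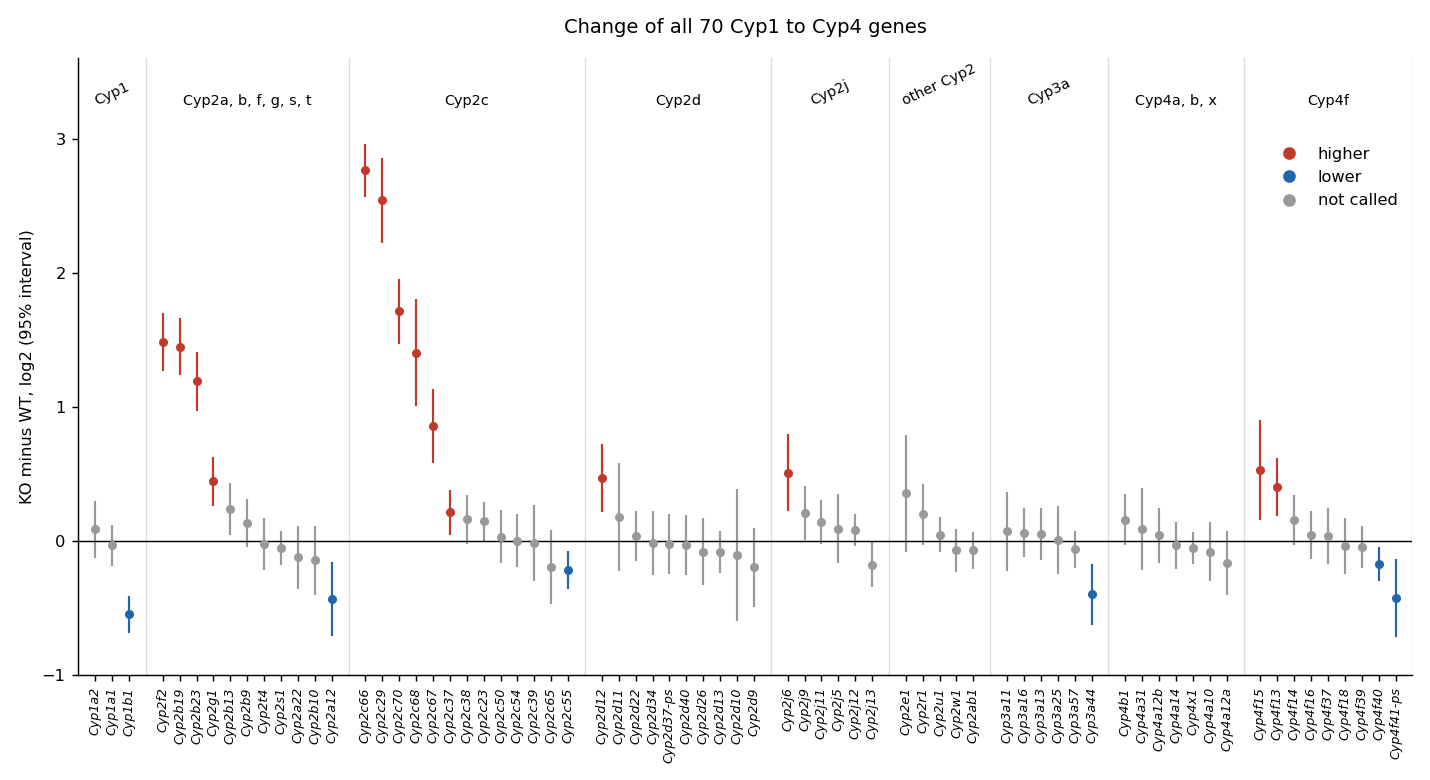
Difference between the KO and the WT mean (log2 units, vertical axis) of all 70 genes, grouped by subfamily along the horizontal axis; points are limma estimates from 5 arrays per group, bars are 95% intervals, and colour marks genes called higher, lower or neither. The 7 changes of at least 1 stand in the Cyp2c group and in the group of Cyp2a, b, f, g, s and t genes, and no other group has a change above 0.53.

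Most of these genes were dim on the arrays: 44 of the 70 lay among the 25% of features with the lowest mean. That mean covers both groups, so a gene such as Cyp2c29 or Cyp2c70 lay above this limit only through its KO level. The median standard error of a change was 0.0968 for the members and 0.0755 for all genes. A dim feature can understate a change, because part of its signal is background.

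The Cyp2c genes of chromosome 19 held the strongest rises. Of 13 measured, 6 were higher, 1 was lower and 6 were not called, and 4 rose by at least 1. Cyp2c66, an intestinal enzyme that oxidises arachidonic acid, was 6.06, 6.03, 6.31, 6.29 and 6.39 in WT replicates 1 to 5 and 8.82, 8.87, 9.10, 9.19 and 8.92 in KO replicates 1 to 5. All KO arrays lay far above all WT arrays. The mean rose from 6.21 ± 0.16 to 8.98 ± 0.16 (SD, n = 5 each), by 2.77 ± 0.09 log2 units (SE), or 6.80-fold (limma adjusted p = 2.38e-11).

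Cyp2c29, a liver enzyme that also makes arachidonic acid epoxides, was 4.73, 4.77, 5.08, 5.22 and 4.42 in the WT arrays and 7.09, 7.73, 7.34, 7.50 and 7.24 in the KO arrays. The groups were again far apart. The rise from 4.84 ± 0.31 to 7.38 ± 0.25 was 2.54 ± 0.15 log2 units, or 5.81-fold (limma adjusted p = 7.64e-09). The annotation gave no transcript accession in common to the features of Cyp2c66 and Cyp2c29. Cross-hybridisation between near copies was not tested.

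Cyp2c70, which in mouse liver hydroxylates bile acids to muricholic acids, was 5.08, 5.27, 5.77, 5.45 and 5.24 in WT and 7.08, 6.98, 7.27, 7.12 and 6.92 in KO. The lowest KO array stood more than 1 log2 unit above the highest WT array. The change was 1.71 ± 0.11 log2 units (limma adjusted p = 3.36e-08), or 3.27-fold.

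The near copies Cyp2c68 and Cyp2c67 were higher as well. Cyp2c68 was 4.47, 4.19, 4.44, 3.90 and 4.10 in WT and 4.92, 5.90, 5.66, 6.11 and 5.54 in KO, without overlap, with KO replicate 1 the lowest of the KO arrays. It rose by 1.40 ± 0.18 log2 units (limma adjusted p = 4.01e-05). Cyp2c67 was 3.87, 3.44, 4.01, 3.64 and 3.37 in WT and 4.84, 4.43, 4.29, 4.58 and 4.48 in KO, again without overlap. It rose by 0.86 ± 0.13 (limma adjusted p = 0.000127), and by 0.52 without a call in batch 2 alone. The features of both genes share 3 accessions each with a further feature that names Cyp2c40, Cyp2c67, Cyp2c68 and Cyp2c69 together and holds no value here, so which of these copies gave the signal is uncertain.

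The remaining Cyp2c genes were close to their WT levels. Cyp2c37 was at the edge of the call, with a rise of 0.21 ± 0.08 (limma adjusted p = 0.0494), and kept its call in 6 of 21 alternative fits. Cyp2c55, which hydroxylates arachidonic acid, was the one member of the group that was lower, from 5.39 ± 0.13 to 5.17 ± 0.05, by −0.22 ± 0.07 (limma adjusted p = 0.0166). It was not called with batch in the model, where the change was −0.13. Cyp2c65, Cyp2c38, Cyp2c39, Cyp2c50, Cyp2c54 and Cyp2c23 were not called, and their changes ran from −0.20 to 0.16.

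**Figure D2:**
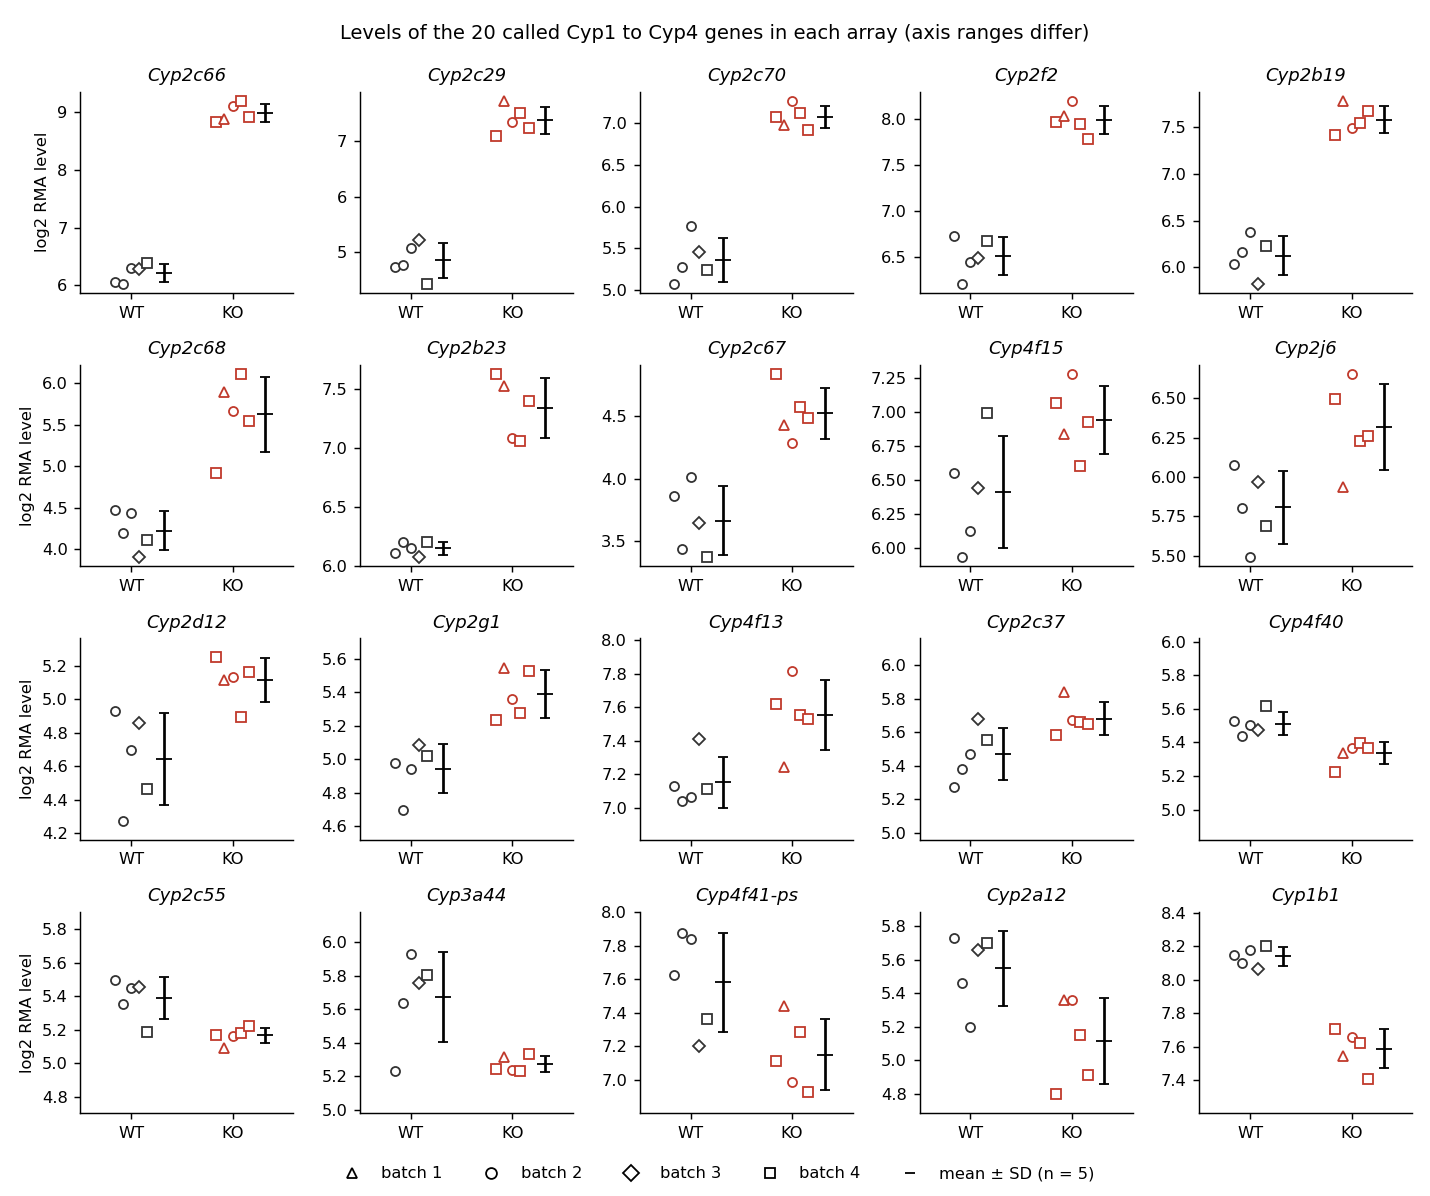
Level of the 20 called genes in each array (log2 RMA level, vertical axis; axis ranges differ between panels), WT in black on the left and KO in red on the right of each panel; symbols mark the labelled batch, and bars give mean ± SD (n = 5). Panels run from the largest rise, Cyp2c66, to the largest fall, Cyp1b1, and the 2 groups are apart in 11 of the 20 panels.

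Along chromosome 19, Cyp2c66 and Cyp2c29 lie next to each other among the genes measured, and so do Cyp2c67 and Cyp2c68. The genes on either side of the first pair were not called, Cyp2c65 at −0.20 ± 0.13 before Cyp2c66 and Cyp2c39 at −0.02 ± 0.13 after Cyp2c29. At the other end of the cluster Cyp2c54 and Cyp2c50, with differences of 0.00 and 0.03, stand before Cyp2c70. RefSeq (GRCm38.p6) gives the bases before the start site for 54 of the 70 genes, and the 250 bases upstream of Cyp2c66 (chr19:39113648-39113897, plus strand) and of Cyp2c65 (chr19:39060756-39061005, plus strand) are shown 5′ to 3′ because this pair shares the longest run of any of the 7 strongest genes with another member. Capitals mark the shared run of 48 bases, which begins 91 bases before the start of Cyp2c66 and 103 bases before that of Cyp2c65.
Cyp2c66: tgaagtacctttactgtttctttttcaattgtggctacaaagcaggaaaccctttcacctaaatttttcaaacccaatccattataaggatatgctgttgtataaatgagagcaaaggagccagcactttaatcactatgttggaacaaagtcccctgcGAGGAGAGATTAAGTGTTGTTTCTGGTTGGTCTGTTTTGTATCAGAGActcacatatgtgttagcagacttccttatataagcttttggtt
Cyp2c65: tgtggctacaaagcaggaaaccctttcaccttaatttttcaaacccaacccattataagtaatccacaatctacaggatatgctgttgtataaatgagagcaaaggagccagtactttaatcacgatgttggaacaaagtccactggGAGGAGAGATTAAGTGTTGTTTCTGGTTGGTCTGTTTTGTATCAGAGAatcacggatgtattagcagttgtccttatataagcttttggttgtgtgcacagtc
The gene with the largest rise and a neighbour with no call thus share this stretch before their start sites.

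Crem binds the cAMP response element, and the upstream bases were therefore searched for it on both strands. The full palindrome TGACGTCA was found in 0 of the 54 members with sequence and in 1.77% of all 27025 genes with sequence. Its shorter core TGACG, which the full element contains, was found in 2 members, Cyp2j5 and Cyp2j9 (3.7% against 19.8% of all genes), and neither gene was called. None of the 12 higher and none of the 5 lower genes with sequence held it in this window. The letters of the TATA box, TATAAA, were found at any place in these bases, on either strand, in 21 of the 54 (38.9% against 14.3% of all genes). The matches began from 234 bases before the start in Cyp3a11 to 16 in Cyp2d11, and that of Cyp2d9 lay on the opposite strand only. The count is therefore of the letters and not of TATA boxes in use. The upstream bases of Cyp2c29 (chr19:39286835-39287084, plus strand) are shown with the TATAAA match in capitals, which begins 19 bases before the start.
Cyp2c29: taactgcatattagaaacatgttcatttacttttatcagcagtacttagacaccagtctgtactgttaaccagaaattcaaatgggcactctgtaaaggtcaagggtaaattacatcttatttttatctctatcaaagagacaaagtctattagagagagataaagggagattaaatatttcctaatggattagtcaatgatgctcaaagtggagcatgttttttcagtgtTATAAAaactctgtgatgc
A core known to bind Hnf4a, CAAAGTCCA, was picked after the sequences had been seen. That choice partly fixed its share among the members, so the contrast with all genes is not a test. The core was found in 6 of the 54 (11.1% against 0.451% of all genes), all of them Cyp2c or Cyp3a genes. These were Cyp2c65, Cyp2c67, Cyp2c68, Cyp2c70, Cyp3a11 and Cyp3a16, of which 3 were higher and 3 were not called. Cyp2c70 (chr19:40187287-40187536, minus strand) is shown with that core and, after it, the TATAAA match of the opposite strand in capitals.
Cyp2c70: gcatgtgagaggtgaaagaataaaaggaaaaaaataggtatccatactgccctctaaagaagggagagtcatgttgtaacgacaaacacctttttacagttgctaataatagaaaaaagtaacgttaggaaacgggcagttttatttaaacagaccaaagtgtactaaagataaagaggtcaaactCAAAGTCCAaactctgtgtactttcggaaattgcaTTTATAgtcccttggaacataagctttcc
These matches describe the sequence alone.

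The second cluster with strong rises lies on chromosome 7 and holds Cyp2a, Cyp2b, Cyp2f, Cyp2g, Cyp2s and Cyp2t genes. Of 11 measured, 4 were higher and 1 was lower. Cyp2f2, the enzyme of lung club cells that activates naphthalene, was 6.72, 6.21, 6.44, 6.48 and 6.67 in WT and 7.97, 8.04, 8.20, 7.95 and 7.78 in KO. The groups were apart by more than 1 log2 unit. The change was 1.48 ± 0.10 log2 units, or 2.80-fold (limma adjusted p = 4.38e-08).

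Cyp2b19, an epoxygenase known from keratinocytes, was 6.04, 6.17, 6.37, 5.83 and 6.23 in WT and 7.41, 7.77, 7.49, 7.54 and 7.66 in KO. It rose by 1.45 ± 0.10 log2 units (limma adjusted p = 5.09e-08). Its neighbour Cyp2b23 was 6.11, 6.20, 6.16, 6.08 and 6.20 in WT, a narrow spread, and 7.62, 7.53, 7.08, 7.06 and 7.40 in KO. It rose by 1.19 ± 0.10 (limma adjusted p = 6.05e-07), and neither gene's groups overlapped. Cyp2g1, an enzyme of the olfactory mucosa and the next gene in the row, was higher by 0.44 ± 0.09 (limma adjusted p = 0.000995) without overlap, from 4.94 ± 0.15 to 5.39 ± 0.14.

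The upstream bases of Cyp2b19 (chr7:26756892-26757141, plus strand) and Cyp2b23 (chr7:26686431-26686680, minus strand) are shown because these 2 neighbours rose together. Capitals mark the 24 bases they share, the longest run among the 21 pairs of the 7 strongest genes, where the other pairs shared 6 to 10 bases.
Cyp2b19: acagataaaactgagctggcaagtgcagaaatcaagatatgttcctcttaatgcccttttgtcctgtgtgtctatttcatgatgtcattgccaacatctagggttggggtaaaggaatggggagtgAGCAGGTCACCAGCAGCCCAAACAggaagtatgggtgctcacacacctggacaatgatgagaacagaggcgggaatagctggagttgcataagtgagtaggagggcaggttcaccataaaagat
Cyp2b23: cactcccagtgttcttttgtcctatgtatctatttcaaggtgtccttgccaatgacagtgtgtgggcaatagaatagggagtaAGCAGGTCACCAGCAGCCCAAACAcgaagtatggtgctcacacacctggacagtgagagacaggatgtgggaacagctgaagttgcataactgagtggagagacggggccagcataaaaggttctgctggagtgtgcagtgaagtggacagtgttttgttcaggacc
Cyp2b23 shared a longer run of 34 bases with Cyp2b10, the phenobarbital-induced enzyme of mouse liver, which was at 5.99 ± 0.21 in WT and 5.84 ± 0.23 in KO (−0.15 ± 0.12, not called).

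Cyp2a12, a steroid hydroxylase of the liver, was the lower gene of this cluster. It was 5.73, 5.46, 5.20, 5.66 and 5.70 in WT and 4.80, 5.36, 5.36, 5.15 and 4.91 in KO, with overlap. The change was −0.43 ± 0.13 (limma adjusted p = 0.0147), and −0.10 within batch 2 against −0.75 within batch 4. It was not called with batch as a fixed block (limma adjusted p = 0.0802). The Cyp2b genes Cyp2b13, Cyp2b9 and Cyp2b10 and the genes Cyp2a22, Cyp2s1 and Cyp2t4 were not called, with differences from −0.15 to 0.24.

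**Figure D3:**
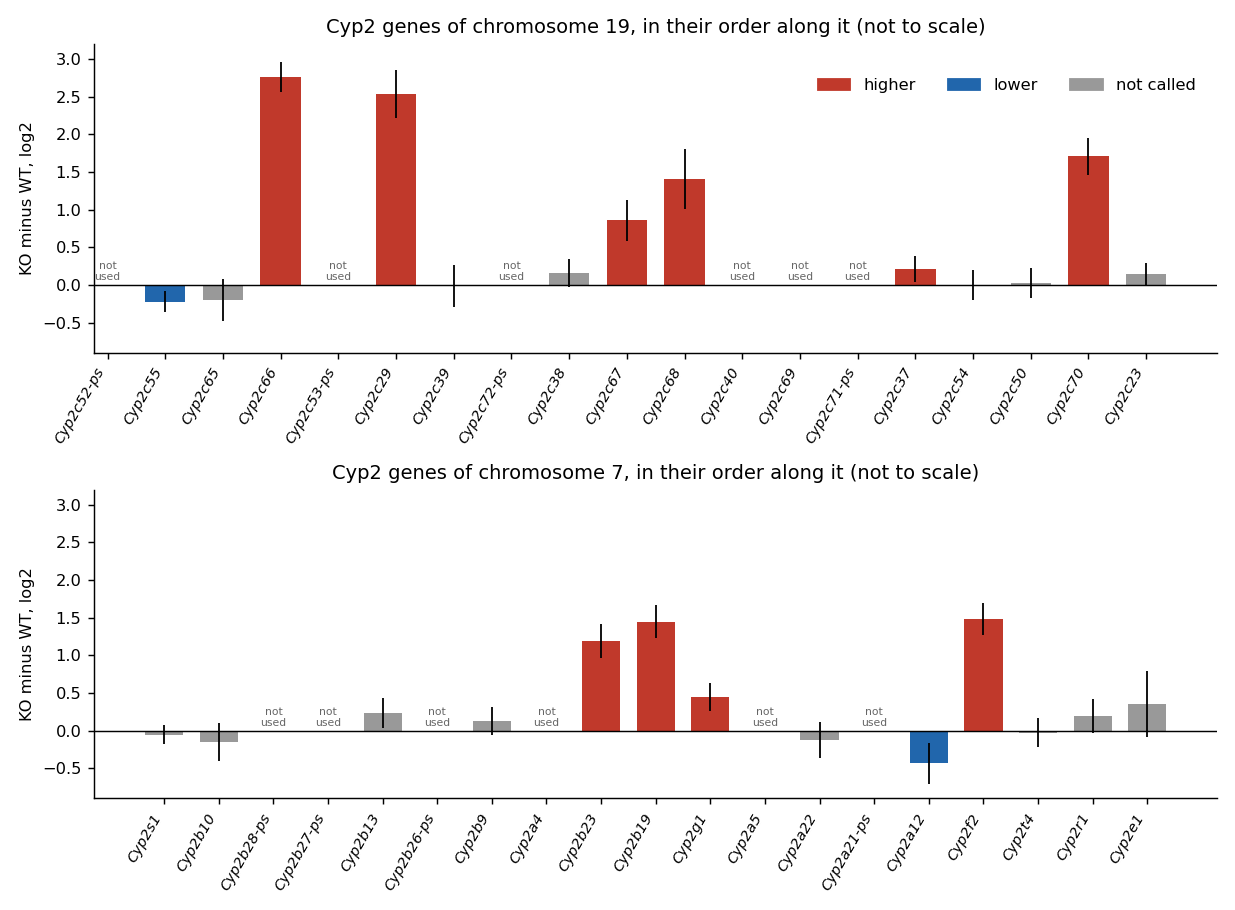
Change of the Cyp2 genes of chromosome 19 (top) and chromosome 7 (bottom) in their order along the chromosome, not to scale (KO minus WT, log2 units, vertical axis; bars start at 0, lines are 95% intervals, and genes without a usable feature are marked as not used). On chromosome 19 the rises of Cyp2c66 (2.77) and Cyp2c29 (2.54) are neighbours among the genes measured, as are those of Cyp2c67 and Cyp2c68. The measured genes on either side of the first pair were dim and not called. On chromosome 7 Cyp2b23, Cyp2b19 and Cyp2g1 form a row of higher genes.

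By position, 6 of the 13 members on chromosome 19 (46.2%), 4 of the 13 on chromosome 7 (30.8%) and 4 of the 44 on all other chromosomes (9.09%) were higher, beside 31.1% of all genes. The 7 rises of at least 1 were divided into 4 on chromosome 19 and 3 on chromosome 7.

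In family 1, 1 of 3 genes was lower and 0 were higher. Cyp1b1, which hydroxylates oestradiol and is a target of Ahr, was 8.15, 8.10, 8.18, 8.07 and 8.20 in WT and 7.70, 7.55, 7.66, 7.62 and 7.41 in KO. The WT arrays were tightly grouped and all lay above the KO arrays. It was lower by −0.55 ± 0.06 (limma adjusted p = 1.41e-05), the largest fall among the members, and was −0.49 within batch 2 and −0.62 within batch 4. Cyp1a1 and Cyp1a2, the other Ahr targets of the family, were not called, with differences of −0.04 ± 0.07 and 0.08 ± 0.10.

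Among the Cyp2d genes, 1 of 10 was called. Cyp2d12 was 4.93, 4.27, 4.70, 4.86 and 4.46 in WT and 5.25, 5.11, 5.13, 4.90 and 5.16 in KO, so that only the lowest KO array reached into the WT range, and it rose by 0.47 ± 0.12 (limma adjusted p = 0.00552). Cyp2d22, a mouse relative of the human drug-metabolising Cyp2d enzyme, was at 7.97 ± 0.08 in WT and 8.00 ± 0.19 in KO. Among the Cyp2j genes, whose enzymes make arachidonic acid epoxides, 1 of 6 was called. Cyp2j6 was 6.08, 5.81, 5.49, 5.97 and 5.69 in WT and 6.50, 5.94, 6.65, 6.23 and 6.26 in KO, with KO replicate 2 inside the WT range, and rose by 0.51 ± 0.13 (limma adjusted p = 0.00786).

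The genes that stand alone in the Cyp2 family were not called, 0 of 5. Cyp2r1, the vitamin D 25-hydroxylase, differed by 0.20 ± 0.11 and the fatty acid hydroxylase gene Cyp2u1 by 0.05 ± 0.06. Cyp2e1, which oxidises ethanol, was 5.22, 5.44, 5.41, 5.35 and 5.63 in WT and 5.50, 5.60, 5.84, 6.65 and 5.23 in KO, with KO replicate 4 far above the other arrays. Its difference was 0.35 ± 0.20 (limma adjusted p = 0.19).

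None of the 6 Cyp3a genes, relatives of the main drug-metabolising enzyme of human liver, was higher and 1 was lower. Cyp3a44 was 5.23, 5.64, 5.93, 5.76 and 5.81 in WT and 5.24, 5.32, 5.24, 5.23 and 5.33 in KO, where WT replicate 1 lay with the KO arrays. The change was −0.40 ± 0.11 (limma adjusted p = 0.00815). Its feature shares 3 accessions with features naming Cyp3a41a and Cyp3a41b that hold no values here. The other Cyp3a genes differed by −0.07 to 0.07.

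In family 4, none of the 7 Cyp4a, Cyp4b and Cyp4x genes was called. Their differences ran from −0.16 for Cyp4a12a to 0.15 for Cyp4b1, and the Ppara targets Cyp4a10 and Cyp4a14 were at −0.08 ± 0.10 and −0.04 ± 0.08. The Cyp4f genes, whose enzymes act on leukotrienes and other fatty acids, were divided, with 2 of 9 higher and 2 of 9 lower. Cyp4f13 was 7.13, 7.04, 7.07, 7.41 and 7.11 in WT and 7.62, 7.24, 7.82, 7.55 and 7.53 in KO, and rose by 0.40 ± 0.10 (limma adjusted p = 0.00597). Cyp4f15 rose by 0.53 ± 0.17 (limma adjusted p = 0.0266), but by 1.07 within batch 2 and −0.13 within batch 4, where WT replicate 5 at 6.99 was above 2 of the 3 KO arrays. With batch as a fixed block it was not called (0.47, limma adjusted p = 0.183). The pseudogene Cyp4f41-ps (−0.43 ± 0.14, limma adjusted p = 0.0209) and Cyp4f40 (−0.18 ± 0.06, limma adjusted p = 0.0267, no overlap) were lower. Cyp4f40 was not called with batch as a fixed block (limma adjusted p = 0.068) or in either batch alone. One feature naming both Cyp4v3 and Klkb1 was outside the rule and was 6.68 ± 0.13 in WT and 6.95 ± 0.05 in KO.

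Within the labelled batches, all 14 higher genes were also higher in batch 2 and 13 of them in batch 4, and all 6 lower genes were lower in batch 2 and 5 in batch 4. The exceptions were Cyp4f15 and Cyp2c55 in batch 4. Batch 2 holds 1 KO array and batch 4 holds 1 WT array. The arrays of both batches are among those on which the genes were called, so a shared direction is partly built in. With batch in the model 13 genes were higher and 3 lower, of which 12 and 3 were among those above. Each of the 7 genes with a rise of at least 1, with Cyp2j6, Cyp4f13 and Cyp1b1, kept its call in every alternative fit that tested it, apart from the last 3 under a minimum change of 1. Without KO replicates 2 and 3, the KO arrays with the most Prm1 RNA, the rises of Cyp2c66 and Cyp2c29 were 2.76 and 2.44.

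The genes that serve these enzymes were set beside them in lists drawn up with the members. Of 7 electron donors measured, 3 were higher (42.9%) and 1 was lower (14.3%), beside 31.1% and 13.2% of all genes. Their median change was 0.30 beside 0.07 for all genes. Fdx1, the ferredoxin of mitochondrial P450 enzymes, rose by 0.35 ± 0.08 and Cyb5r3, a cytochrome b5 reductase, by 0.31 ± 0.06, while Cyb5r4 fell by 0.24 ± 0.09. The cytochrome P450 reductase gene Por was not analysed here.

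Of 14 xenobiotic receptors and liver factors, 5 were higher (35.7%) and 2 lower (14.3%), with a median of 0.07. These shares were close to the 31.1% and 13.2% of all genes. Nfe2l2, the regulator of the antioxidant response, rose from 8.43 ± 0.21 to 10.21 ± 0.13, by 1.79 ± 0.10 log2 units (limma adjusted p = 5.5e-09). Arnt, the partner of Ahr, rose by 0.41 ± 0.07, Nr1i3, the receptor that drives Cyp2b and Cyp2c genes in liver, by 0.40 ± 0.09, Ahr by 0.32 ± 0.09 and Ppara by 0.31 ± 0.08. Of the shared partners of the nuclear receptors, Rxra was lower, from 8.61 ± 0.09 to 7.37 ± 0.15 (−1.23 ± 0.08), and so was Rxrg (−0.35 ± 0.09), while Rxrb was not called (0.14 ± 0.06). Nr1i2 and Hnf4a were not called, with differences of 0.02 ± 0.12 and 0.05 ± 0.11.

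Among 19 P450 genes of other families, 4 were higher and 4 lower (21.1% each, beside 31.1% and 13.2% of all genes). In this list 0 rose by at least 1. Cyp20a1 (0.86 ± 0.08), the side-chain cleavage enzyme Cyp11a1 of androgen synthesis (0.84 ± 0.16), the sterol 27-hydroxylase Cyp27a1 (0.69 ± 0.08) and the Leydig cell enzyme Cyp17a1 (0.61 ± 0.11) were higher. The oxysterol hydroxylase Cyp39a1 was lower by −1.91 ± 0.07, the lanosterol demethylase Cyp51 by −1.50 ± 0.10, the retinoic acid hydroxylase Cyp26a1 by −0.60 ± 0.07 and Cyp11b2 by −0.31 ± 0.08. In families 1 to 4 no gene fell by as much as Cyp26a1.

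Of 34 other drug-processing enzymes, 17 were higher (50%) and 2 lower (5.88%), beside 31.1% and 13.2% of all genes, with a median of 0.29. The oestrogen sulfotransferase Sult1e1 rose by 0.79 ± 0.20 and the microsomal epoxide hydrolase Ephx1 by 0.76 ± 0.16. The quinone reductase Nqo2 was lower by −2.41 ± 0.08 and the aldehyde oxidase Aox3 by −1.64 ± 0.10. Of 20 enzymes of arachidonic acid release and conversion, a list that holds Ephx1 too, 7 were higher (35%) and 3 lower (15%). These shares were close to the 31.1% and 13.2% of all genes, and the median was 0.12. Pla2g4a, the phospholipase that frees arachidonic acid, rose by 0.60 ± 0.07, while the lipoxygenase Alox12 (−0.49 ± 0.08) and the leukotriene C4 synthase Ltc4s (−0.37 ± 0.10) were lower.

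**Figure D4:**
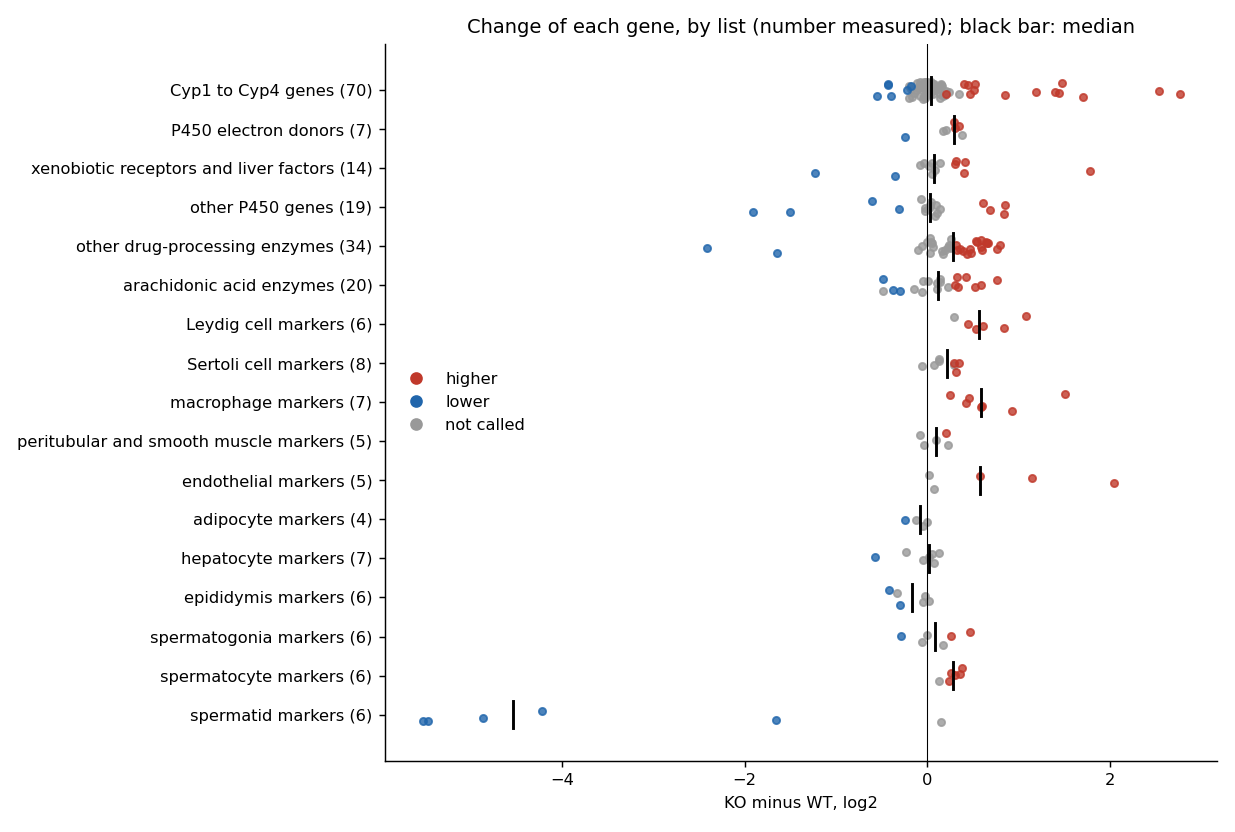
Change of each gene (KO minus WT, log2 units, horizontal axis) for the 70 members and for 16 further lists, with the number of genes measured in brackets; points are genes, black bars are list medians, and colour marks genes called higher, lower or neither. The members gather near 0 (median 0.04) with a tail of rises up to 2.77, while the spermatid markers reach −5.52.

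Markers of Leydig cells and macrophages were mostly higher in the same arrays, and those of endothelium were divided, beside 31.1% of all genes called higher. Leydig cell markers were higher in 5 of 6, with Hsd17b3 at 1.08 ± 0.14, and their summed level ran from 13.07 to 13.34 in WT and from 13.46 to 14.14 in KO (log2 of the summed linear levels). Macrophage markers were higher in 7 of 7, with Adgre1 at 1.52 ± 0.07 and Lyz2 at 0.93 ± 0.20, and their summed level was 10.29 to 10.46 in WT and 10.82 to 11.47 in KO. Endothelial markers were higher in 3 of 5, with Tek at 2.05 ± 0.11, Cdh5 at 1.15 ± 0.07 and Vwf at 0.58 ± 0.06. Pecam1 at 0.02 ± 0.07 and Kdr at 0.08 ± 0.08 were not called. The summed level of the endothelial markers was 9.26 to 9.35 in WT and 10.20 to 10.38 in KO. Such a sum adds levels of different probes and is weighted toward the bright ones, so it does not measure the number of cells. Among the endothelial markers Tek rose most, from 6.79 in WT to 8.84 in KO. The brightest Leydig cell marker was Cyp17a1, at 12.24 in WT and 12.85 in KO. Sertoli cell markers were higher in 3 of 8 (37.5%), led by Fshr (0.35 ± 0.07), and 5 were not called, among them Amh (−0.06 ± 0.06), with sums of 11.54 to 11.65 in WT and 11.59 to 11.95 in KO. Spermatid markers were lower in 5 of 6, with a median change of −4.54 over the 6. Their sums were 15.83 to 16.05 in WT and 13.20 to 13.73 in KO. The spermatid marker Acrv1 was not called (0.15 ± 0.06), at 12.50 ± 0.06 in WT and 12.65 ± 0.09 in KO. The part of these cell types in the P450 rises was not tested.

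Markers of hepatocytes, adipocytes and epididymis were listed as well, but none of intestine, lung or skin. Whether RNA of other tissues had a part in the P450 rises was not tested. Of 7 hepatocyte markers 0 were higher and 1, Fgb, was lower (−0.57 ± 0.19), albumin (Alb) was at 5.56 ± 0.16 in WT and 5.64 ± 0.17 in KO, and the summed level was 8.80 to 9.09 in WT and 8.81 to 9.02 in KO. Adipocyte markers (0 of 4 higher, Adipoq −0.24 ± 0.08) and epididymis markers (0 of 6 higher, Rnase10 −0.42 ± 0.13) were not higher either. Spermatocyte markers were higher in 5 of 6, with a median of 0.28 led by Spo11 at 0.38 ± 0.09, spermatogonia markers in 2 of 6, with Kit at 0.47 ± 0.09, and peritubular and smooth muscle markers in 1 of 5, Myh11 at 0.21 ± 0.06.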

How the data were processed

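RNA from whole testes of 5 WT and 5 KO mice was measured on GeneChip arrays (Affymetrix Mouse Gene 1.0 ST), with 1 animal per array. The authors deposited log2 expression levels made by RMA in the XPS package (version not given in the sources used here), with background from antigenomic probes and probes summarised per transcript. Of the features, 25689 held values and 9868 were empty in every array. Features with 1 symbol (20777) named 19661 genes, each by its feature of highest mean.

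KO minus WT was fitted with limma 3.58.1 (lmFit and eBayes, R 4.3.3) over all 25689 features without covariates, and genes were called at a Benjamini-Hochberg adjusted p below 0.05. Tested on simulated data over those features, the fit recovered 76.12% of changes of 0.5, 97.01% of changes of 1 and 100% of changes of 2 log2 units. Only 67, 67 and 66 features were given these changes, and batches were not simulated. In the data 44.3% of all genes were called, so the adjusted p cut was stricter in the simulation than in the data. The shares recovered therefore need not hold for the data. The shares are over all kinds of features and may differ for the members, most of which are dim. Array medians lay between 7.11 and 7.15. The number of arrays limits the precision, RMA levels hold no zero, and levels of different probes cannot be compared.

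Named genes were Crem, Cyp2c66, Cyp2c29, the 10 largest rises and falls among called members, the leading members of each subfamily group and up to 2 genes per direction in each further list. Further members, and further genes of the lists, were named for their role or place after their values were seen. Members and lists were chosen with earlier results of these data known. Replicates were numbered in accession order. Alternatives were further normalization, centring on the median or on housekeeping genes, batch as a fixed or random block, single batches, array weights, another variance prior, a filter on dim features, a minimum change, the mean of a gene's features, and leaving out arrays. Upstream bases came from RefSeq (GRCm38.p6), 250 bases before the first entry of each gene for the printed sequences and of all entries for motifs. The Hnf4a core and the search for shared runs were added after the data were seen. A comparison of the proteins was not run. Housekeeping genes were higher in 3 of 9 and lower in 2 of 9.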

Additional observations from a re-analysis of the deposited data

Results flagged for a closer look

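In 6 of 224 groups of 5 arrays tested, 1 array stood apart from the other 4 by more than the 95% limit of Dixon's test (a ratio of 0.71), which chance gives in about 1 of 20 groups, here 11.2. Of the 140 groups of members, 3 did so. Cyp2d10 was 5.31 in WT replicate 2 and 6.48 to 6.66 in the other WT arrays. Cyp4b1 was 7.22 in WT replicate 1 and 6.79 to 6.88 in the others. Cyp4f13 was 7.41 in WT replicate 4, toward the KO arrays, and 7.04 to 7.13 in the others. Of the further lists, the test covered only the up to 2 genes per direction that were named by rule. Among these the macrophage marker Adgre1 was 6.59 in WT replicate 1 against 6.73 to 6.78. Cyp20a1 was 7.92 in KO replicate 1 against 7.64 to 7.68. The epididymis marker Defb42 was 5.63 in WT replicate 2 against 5.29 to 5.37. Other listed genes were not tested. Among them the epididymis marker Adam7 was 6.66 in WT replicate 2 as well, against 4.65 to 4.94 in the other WT arrays. The hepatocyte marker Fga was 6.77 in WT replicate 1 against 5.97 to 6.18.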

How the results depend on the processing

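Crem kept its fall in every alternative. The count of higher members, 14, was 9 without the dimmest 25% of features (26 members left) and 7 with a minimum change of 1, and 12 to 16 when 1 array was left out. The count of lower members, 6, was 3 with batch as a fixed block, 2 in batch 2 alone, 3 in batch 4 alone, 2 without the dimmest features and 0 with the minimum change, and 5 to 7 when 1 array was left out. The cause was not tested, except that batch 2 holds 1 KO array and batch 4 holds 1 WT array, whose spread is assumed to be that of the other group, and that the filter on dim features keeps some genes only through their KO level. The median change, 0.04, was −0.013 with the housekeeping centring and 0.10 without the dimmest features. The median over all genes was 0.016 and 0.106 in the same settings. In batch 4 alone Cyp4f15 turned to −0.13 and Cyp2c55 to 0.0074. Cyp4f15 lost its call without KO replicate 1, KO replicate 3, WT replicate 2 or WT replicate 3, Cyp4f40 without KO replicate 1, WT replicate 1 or WT replicate 5, and Cyp4f41-ps without KO replicate 3, KO replicate 5, WT replicate 2 or WT replicate 3. Cyp4f15 and Cyp4f40 also lost it with the fixed block. In the single batches Cyp2g1 was at 0.48 and 0.33 without a call, and in batch 2 Cyp2d12 was at 0.50 and Cyp3a44 at −0.36 without a call, close to their changes over all arrays. Cyp2a12 was not called with the fixed block. Of the changes of named members, 380 values kept direction and call, 26 lost the call, 1 gained it and 2 reversed. Dim features limit 44 of the 70 members. No paired analysis was possible because the labels give no replicate numbers that the groups share.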
